A study of Mus musculus with 4 samples.

Results

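The genes described here encode the proteins that carry the signal of bacterial lipopolysaccharide (LPS) from the cell surface to the kinases of the IRAK family. They are the co-receptors Cd14 and Ly96, the TIR-domain adaptors Myd88, Tirap, Ticam1 and Ticam2, and the kinases Irak1, Irak2, Irak3 and Irak4. They were taken by gene symbol, and 10 of 10 had a row among the 14435 genes of the table. All 10 passed the filter on low counts, so none of them is left out of a count below.

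RNA was sequenced from RAW264.7, an established mouse macrophage line that grows as a permanent culture and responds to LPS. The shMettl3 group has 2 libraries of cells transfected with an shRNA to Mettl3, whose product is the active subunit of the enzyme that writes N6-methyladenosine (m6A) on RNA. The control group has 2 libraries of cells transfected with an unspecific shRNA. Cells of both groups were exposed to LPS of E. coli for 12 hours, so no library shows cells without LPS, and the values compare knockdown with control cells in the presence of LPS. The labels name neither the shRNA vector nor any selection of clones. Nothing in them says that libraries of 1 group were grown apart, and a p-value here covers the spread between these samples alone, which may be technical.

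LPS is extracted from bacterial membranes and handed by CD14 to MD-2, the product of Ly96, which sits on the extracellular part of the receptor TLR4. Inside the cell TLR4 uses a pair of bridging adaptors. TIRAP brings in MyD88, which assembles IRAK4, IRAK1 and IRAK2 into a signalling complex at the plasma membrane. TRAM, the product of Ticam2, brings in TRIF, the product of Ticam1, which signals from endosomes to the interferon pathway. IRAK-M, the product of Irak3, lacks normal kinase activity and is known in macrophages as an inhibitor that LPS induces.

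The libraries held between 16342313 and 17193639 estimated counts. Mettl3 had 11.5 and 11.2 CPM (counts scaled to library size by the TMM method) in shMettl3 cells, against 30.9 and 29.9 CPM in control cells, and fell by 1.42 on the log2 scale (SE 0.10; edgeR quasi-likelihood, adjusted p = 1.58e-06). One label of shMettl3 replicate 2 names METTL4, while its title names Mettl3, and Mettl4 had 24.4 and 24.8 CPM in shMettl3 cells, against 26.4 and 24.3 CPM in control cells. Every tested gene was fitted with edgeR's quasi-likelihood test and Benjamini-Hochberg adjustment, and a gene was said to rise or fall at an adjusted p below 0.05. By that rule 43.7% of the 11035 tested genes changed. 21.4% rose and 22.3% fell. Of 9 macrophage markers, all tested, 5 fell (Adgre1, Csf1r, Cd68, Itgam and Lyz2) and Ptprc rose, and their summed CPM, unscaled by TMM, was 6292 and 6093 in shMettl3 cells, against 9464 and 9147 in control cells. Of the fibroblast markers 4 of 6 had a row. They summed to 3.12 and 0.358 CPM in shMettl3 cells, against 0 and 0.0582 CPM in control cells. Col1a1, Col1a2 and Col3a1 had 17, 15 and 15 counts in shMettl3 replicate 1, and 1, 0 and 0 in shMettl3 replicate 2. Each of these collagen genes had 0 counts in both control libraries. Lymphocyte markers, with 3 of 7 in the table, summed to at most 1.10 CPM in any library, and neutrophil markers, with 4 of 6, to between 5.54 and 6.73 CPM. The part of these differences in the results below was not tested, and in bulk RNA fewer cells of a type and less RNA per cell cannot be told apart.

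Of the 10 genes, 4 rose in shMettl3 cells and 2 fell. The bridging adaptors Tirap and Ticam2, the inhibitory kinase gene Irak3 and the co-receptor gene Ly96 rose, and the co-receptor gene Cd14 and the kinase gene Irak1 fell. Irak2 and Irak4 had positive changes that were not called, and the signalling adaptors Myd88 and Ticam1 had changes near 0. The 4 rises of 10 stand beside 21.4% of all tested genes that rose, and the 2 falls of 10 beside 22.3% that fell. The median log2 fold change of the 10 genes was 0.22, against 0.01 over all tested genes. The shMettl3 and control libraries did not overlap for 8 of the 10, where 73.4% of all tested genes did not overlap.

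**Figure D1:**
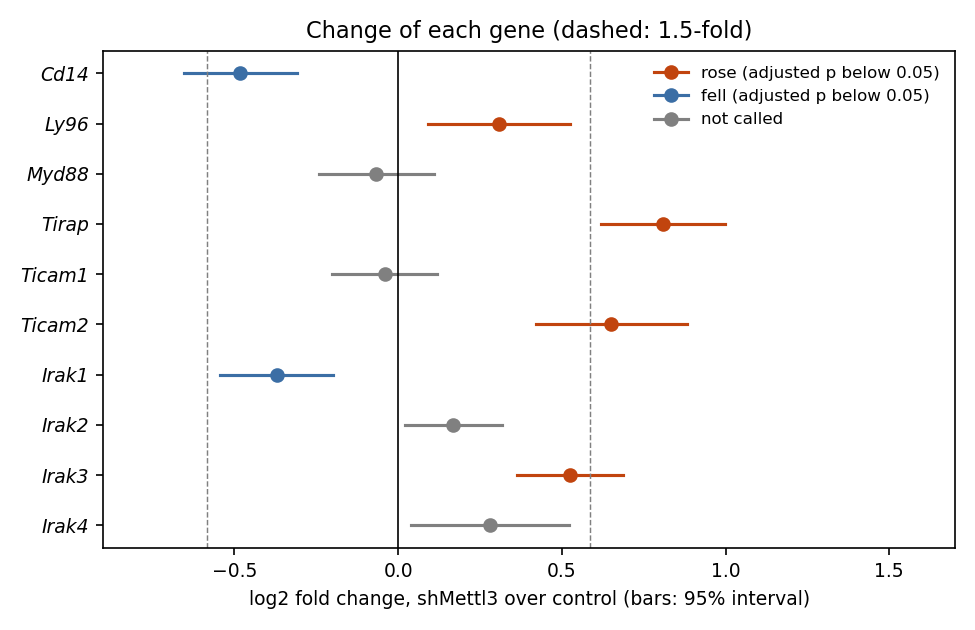
Log2 fold change of each gene, shMettl3 over control, on the horizontal axis, with points for the estimate of edgeR's quasi-likelihood fit and bars for its 95% interval, from 2 libraries a group. The intervals of Tirap (from 0.62 up) and Ticam2 (from 0.42 up) lie to the right of 0, those of Cd14 and Irak1 to the left, and those of Myd88 and Ticam1 cross 0.

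The sizes were moderate. In edgeR's test against a 1.5-fold change, which called 8.63% of all tested genes (3.76% rose and 4.87% fell), Tirap alone was called among the 10 genes (adjusted p = 0.0346 by edgeR's glmTreat with Benjamini-Hochberg adjustment). That call was lost without control replicate 2, without shMettl3 replicate 1 and without shMettl3 replicate 2, each of which left 0 of the 10. The absolute change of Tirap was larger than that of 87.1% of tested genes, that of Ticam2 larger than 82.2%, that of Irak3 larger than 75.4% and that of Cd14 larger than 72.7%. Myd88 was at the other end, larger than 14.9% of tested genes, and Ticam1 was lower still.

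The levels of the genes were compared per transcript length, as TPM, the authors' transcript abundance scaled to length and depth. Cd14 was the most abundant of the 10 by a wide margin, at 3066 and 3269 TPM in shMettl3 cells, against 3787 and 4244 TPM in control cells. In both groups the next in order were Myd88, Irak3, Ly96, Irak2 and Ticam1, each apart from its neighbours in both libraries. Below them, Irak1 and Tirap overlapped in shMettl3 cells, at 23.8 to 26.4 TPM for Irak1 and 22.9 to 24.0 TPM for Tirap. In control cells Irak1 stood apart at 28.0 to 30.4 TPM, and Tirap, at 11.02 to 13.2 TPM, overlapped with Irak4, at 10.4 to 13.1 TPM. Ticam2 was the least abundant in both groups, at 10.9 and 10.7 TPM in shMettl3 cells, against 6.37 and 6.07 TPM in control cells. Tlr4, the receptor itself, was at 6.87 and 6.79 TPM in shMettl3 cells, against 6.09 and 7.60 TPM in control cells.

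**Figure D2:**
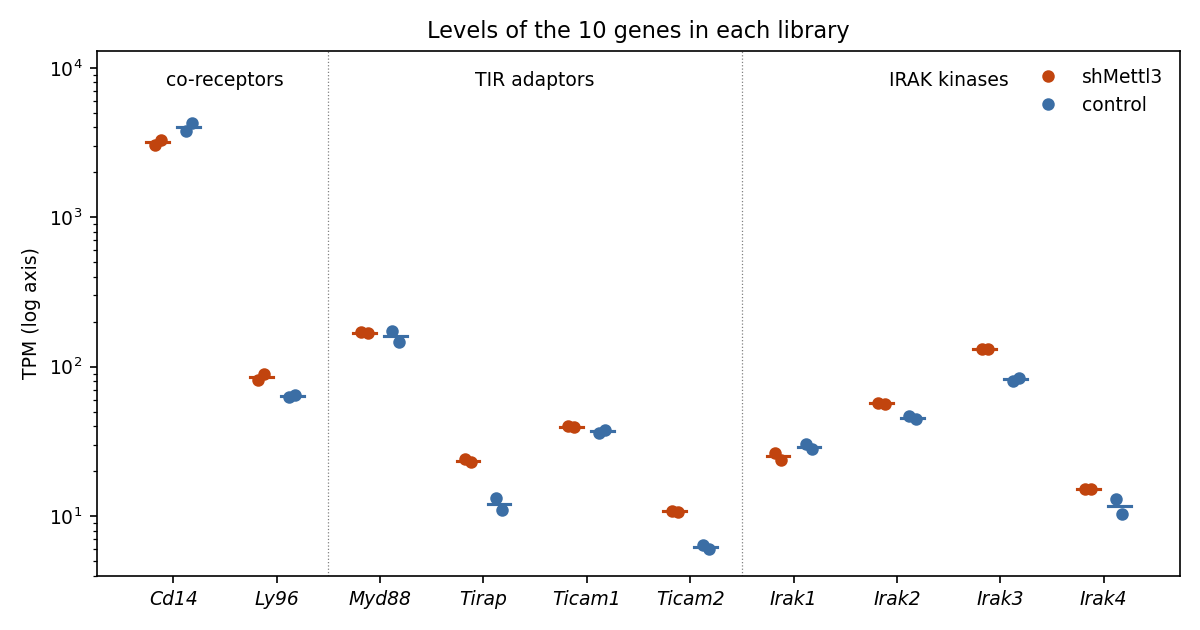
TPM of each gene in each library on a log axis, with 2 points and a line at the mean for shMettl3 (left of each pair) and control (right). Cd14 lies far above the other genes in all 4 libraries, Tirap, Ticam2 and Irak3 are higher in both shMettl3 libraries, and the Myd88 points of control lie on either side of the shMettl3 points.

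The co-receptors changed in opposite directions. Cd14 (Entrez gene 12475), a membrane-anchored protein that transfers LPS, had 2791 and 2959 CPM in shMettl3 cells, against 3724 and 4306 CPM in control cells. Both shMettl3 libraries were below both control libraries. The summed macrophage markers were lower too, and that sum follows Lyz2 most. Lyz2 had 3280 and 3131 CPM in shMettl3 cells, against 6056 and 5679 CPM in control cells. Of the same markers Adgre1 (log2 fold change -1.79), Itgam (-1.14), Csf1r (-1.04) and Cd68 (-0.54) fell as well. Ptprc rose (0.57), and Spi1 (-0.06), Fcgr1 (0.83) and Mrc1 (-1.04) were not called. The part of these differences in the fall of Cd14 was not tested. The log2 fold change of Cd14 was -0.48 (SE 0.08), a fold of 0.716 (edgeR quasi-likelihood, adjusted p = 5.82e-04). Ly96 (Entrez gene 17087), which encodes the LPS-binding pocket of the receptor complex, had 23.0 and 24.0 CPM in shMettl3 cells, against 18.4 and 19.6 CPM in control cells. The groups did not overlap. Its log2 fold change of 0.31 (SE 0.10) passed the threshold (edgeR quasi-likelihood, adjusted p = 0.0264), a fold of 1.24.

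The call on Ly96 was lost in DESeq2 (adjusted p = 0.150) and in 3 of the 4 fits that left out 1 library, with control replicate 1 (0.0754), shMettl3 replicate 1 (0.0879) or shMettl3 replicate 2 (0.169) left out. Cd14 stayed below 0 and called in every alternative run. The quotient of the TPM values, Cd14 over Ly96, was 37.4 and 36.5 in shMettl3 cells, against 60.1 and 65.2 in control cells. With 2 libraries a group the smallest two-sided exact permutation p for such a quotient is 0.333, so this and the quotients below are given as values.

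Of the adaptors, those that bridge to the receptor rose and those that pass the signal on were not called. Tirap (Entrez gene 117149), the bridging adaptor for MyD88, had 1105 and 1098 estimated counts in shMettl3 cells, against 655 and 565 in control cells. Scaled to library size this was 65.7 and 63.1 CPM in shMettl3 cells, against 39.4 and 34.0 CPM in control cells. The groups were well apart, and the log2 fold change was 0.81 (SE 0.09), a fold of 1.75 with a lower 95% bound of 1.54 (edgeR quasi-likelihood, adjusted p = 2.82e-05). Ticam2 (Entrez gene 225471), the bridging adaptor for TRIF, had 342 and 347 counts in shMettl3 cells, against 215 and 211 in control cells. These are 20.3 and 19.9 CPM in shMettl3 cells, against 12.9 and 12.7 CPM in control cells. Libraries of the same group lay close together, and the log2 fold change was 0.65 (SE 0.11), a fold of 1.57 with a 95% interval of 1.34 to 1.84 (edgeR quasi-likelihood, adjusted p = 5.22e-04).

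Myd88 (Entrez gene 17874), the adaptor shared by most Toll-like receptors and the interleukin-1 receptor family, had 179.5 and 176 CPM in shMettl3 cells, against 199 and 173 CPM in control cells. The control libraries lay on either side of the shMettl3 libraries. Its log2 fold change was -0.07 (SE 0.08; edgeR quasi-likelihood, adjusted p = 0.534), and the 95% interval of the fold ran from 0.845 to 1.08. Ticam1 (Entrez gene 106759), the adaptor for interferon induction, had 64.0 and 63.7 CPM in shMettl3 cells, against 63.4 and 67.8 CPM in control cells. The groups overlapped, and the log2 fold change was -0.04 (SE 0.07; edgeR quasi-likelihood, adjusted p = 0.682), with a fold between 0.870 and 1.09. The sign of these 2 small changes turned under other scalings and without 1 control library.

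Because the adaptors act in pairs, their TPM values were divided within each library. Tirap over Myd88 was 0.141 and 0.137 in shMettl3 cells, against 0.0757 and 0.0749 in control cells. Ticam2 over Ticam1 was 0.274 and 0.270 in shMettl3 cells, against 0.176 and 0.161 in control cells. In both pairs the bridging adaptor took a larger part relative to its partner in both shMettl3 libraries. These quotients come from the same libraries as the changes of the single genes, so they restate those changes and add no separate result. The signalling adaptors relative to each other, Ticam1 over Myd88, had 0.234 and 0.236 in shMettl3 cells, against 0.208 and 0.256 in control cells, and overlapped. Tirap made up 9.81% and 9.53% of the summed TPM of the 4 adaptors in shMettl3 cells, against 5.73% and 5.46% in control cells. Myd88 was the largest share in every library, at 69.5% and 69.6% in shMettl3 cells, against 75.7% and 72.9% in control cells.

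**Figure D3:**
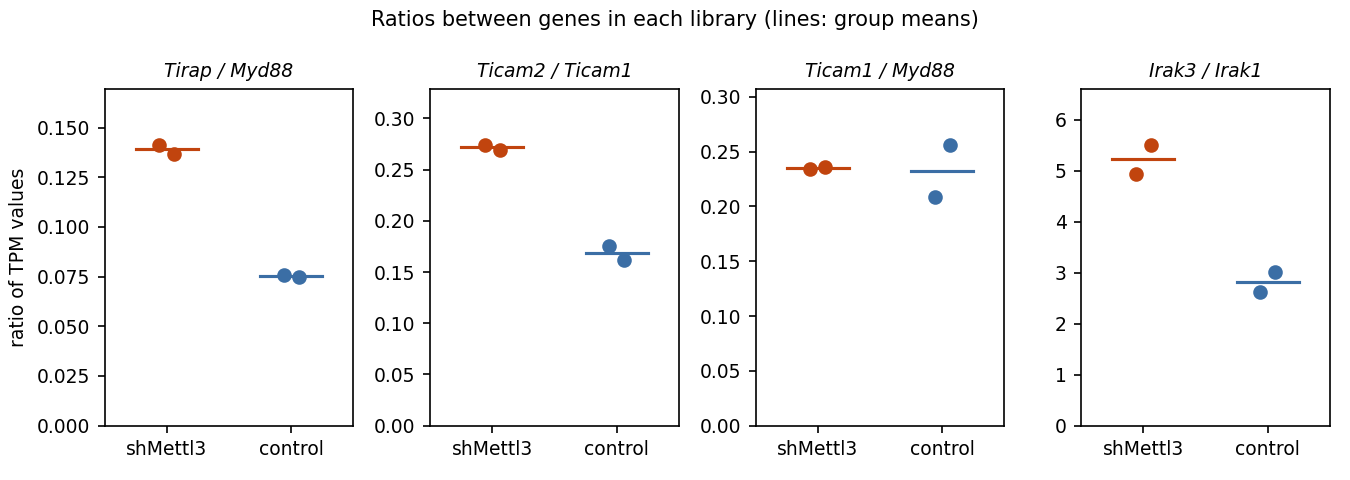
Quotients of TPM values within each library for Tirap over Myd88, Ticam2 over Ticam1, Ticam1 over Myd88 and Irak3 over Irak1, with 1 point a library, lines at the group means and every axis starting at 0. Tirap over Myd88 and Ticam2 over Ticam1 are higher in both shMettl3 libraries, Ticam1 over Myd88 overlaps, and Irak3 over Irak1 is 4.94 and 5.504 in shMettl3 cells, against 2.63 and 3.02 in control cells.

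Some adaptor genes share exon bases with neighbouring genes, and the labels' protocol has no step that keeps the RNA's strand. In GENCODE M21 (GRCm38, a later build than the authors' mm9), 838 of the 5792 exon bases of Ticam2 are shared with Tmed7, a trafficking gene on the same strand, and Tmed7 rose too (log2 fold change 0.36, SE 0.07). Tirap shares 446 of its 4929 exon bases with Gm39318, an antisense gene, and 39 with Srpr, a subunit of the signal recognition particle receptor on the opposite strand, which also rose (0.63, SE 0.07). Myd88 shares 290 of 2576 exon bases with Acaa1a, on the opposite strand, which fell by 0.32. Reads from the shared bases cannot be assigned with certainty, and their part in the changes was not tested. The estimated counts of Tirap, Ticam2, Ticam1 and Myd88 were whole numbers in all 4 libraries.

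Tirap had the largest change of the 10 genes, so the 250 bases before its start site are shown, from RefSeq on GRCm38.p6, minus strand, chr9:35199966-35200215, at the more upstream of its 2 windows. Capitals would mark a match to the NF-kB consensus, to the core of PU.1, a transcription factor of macrophages (GAGGAA), or to the AP-1 site (TGANTCA), on either strand, and there was none.
Tirap promoter: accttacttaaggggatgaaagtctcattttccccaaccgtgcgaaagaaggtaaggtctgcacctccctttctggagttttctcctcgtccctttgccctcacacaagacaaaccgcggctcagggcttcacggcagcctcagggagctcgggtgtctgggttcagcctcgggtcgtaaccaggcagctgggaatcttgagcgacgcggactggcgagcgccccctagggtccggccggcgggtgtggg
The study concerns an m6A writer, so transcripts were also searched for GGACT, a form of the sequence that the METTL3 complex methylates. m6A itself was not measured here. The Tirap transcript of GENCODE M21 with the longest coding region holds 6 copies, 1 coding and 5 after the stop codon. The copy nearest to the stop codon lies 200 bases after it, at chr9:35187700-35187724 (GRCm38, minus strand), with GGACT in capitals.
Tirap site: aagaagatggGGACTccccaagaag

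The IRAK genes were mixed. Irak3 rose, Irak1 fell, and Irak2 and Irak4 were not called. The shMettl3 and control libraries did not overlap for any of the 4, as for 73.4% of all tested genes. Irak3 (Entrez gene 73914), which encodes the inhibitor IRAK-M, had 219.6 and 223 CPM in shMettl3 cells, against 147 and 161 CPM in control cells. Both shMettl3 libraries were higher. Its log2 fold change was 0.52 (SE 0.07), a fold of 1.44 with a 95% interval of 1.29 to 1.61 (edgeR quasi-likelihood, adjusted p = 2.01e-04). Irak1 (Entrez gene 16179), a kinase that is modified and degraded when the receptor is engaged, had 57.2 and 51.2 CPM in shMettl3 cells, against 70.7 and 69.5 CPM in control cells. Both shMettl3 libraries were lower, with a log2 fold change of -0.37 (SE 0.08), a fold of 0.773 (edgeR quasi-likelihood, adjusted p = 0.00286). Its call was lost without shMettl3 replicate 2 (-0.29, adjusted p = 0.0606) and in limma on the authors' TPM with a pseudocount of 1 (-0.21, adjusted p = 0.0923).

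Irak2 (Entrez gene 108960), the kinase that sustains signalling after IRAK1, had 104 and 102 CPM in shMettl3 cells, against 92.4 and 90.7 CPM in control cells. The groups lay apart by a small step, with a log2 fold change of 0.17 (SE 0.07; edgeR quasi-likelihood, adjusted p = 0.0634) and a fold between 1.01 and 1.25. Irak4 (Entrez gene 266632), the kinase that MyD88 recruits before the others, had 22.0 and 23.1 CPM in shMettl3 cells, against 20.1 and 17.0 CPM in control cells. Its control libraries differed more from each other than its shMettl3 libraries did, and the log2 fold change was 0.28 (SE 0.11; edgeR quasi-likelihood, adjusted p = 0.0590), with a fold between 1.03 and 1.44. Scaling by library size alone called both Irak2 (0.26, adjusted p = 0.00829) and Irak4 (0.38, adjusted p = 0.0157), and Irak4 was also called without control replicate 1 (0.39, adjusted p = 0.00951).

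Within the IRAK genes the summed TPM was 229 and 227 in shMettl3 cells, against 169.96 and 167 in control cells. Irak3 made up 56.9% and 57.9% of it in shMettl3 cells, against 46.9% and 50.5% in control cells. Irak1 made up 11.5% and 10.5% in shMettl3 cells, against 17.9% and 16.7% in control cells. The share of Irak3 was higher and that of Irak1 lower in both shMettl3 libraries. Like the quotients of the adaptors, these shares restate the changes of the single genes. Shares of 1 total depend on each other, so a larger share of Irak3 leaves less for the other genes. Irak2 had a smaller share in shMettl3 cells although its TPM was higher there, at 57.3 and 56.3, against 46.8 and 44.5 in control cells. Irak2 had 24.98% and 24.8% in shMettl3 cells, against 27.5% and 26.6% in control cells, while the shares of Irak4, 6.59% and 6.75% in shMettl3 cells, against 7.68% and 6.21% in control cells, overlapped. On the TPM scale the median change over all genes (log2) is 0.14, against 0.01 with TMM scaling, while shares within a library do not depend on that scaling.

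Irak3 shares 192 of its 3676 exon bases with Tmbim4 on the opposite strand, which was not called (log2 fold change -0.07, SE 0.08), and 28 with Gm47009, an antisense gene. Irak4 shares 395 of 5021 exon bases with Twf1 on the opposite strand, an actin-binding gene that was not called (0.08, SE 0.07). Some estimated counts of Irak1 and Irak2 were not whole, such as 962.01 and 891.11 for Irak1 in shMettl3 cells. The fractions are a small part of the counts. Irak2 shares 196 of its 4412 exon bases with Gm43963 on the opposite strand. Irak1, with 4716 exon bases, shares 71 with Mir5132 and 70 with Mir718, microRNA genes on the same strand. Cd14, Ly96 and Ticam1 share no exon bases with another gene in this annotation.

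**Figure D4:**
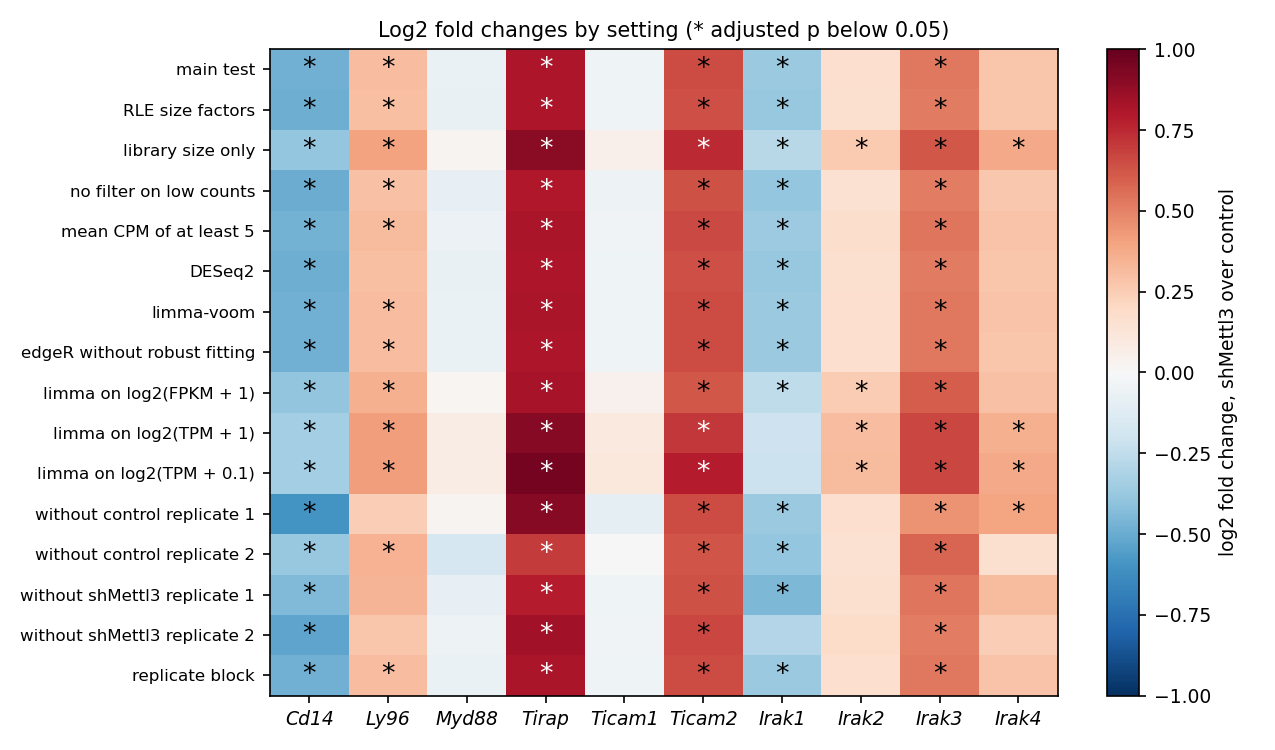
Colour shows the log2 fold change of each gene, shMettl3 over control, for the main test and 15 alternatives (rows), with an asterisk where the adjusted p is below 0.05. Tirap, Ticam2 and Irak3 are above 0 and Cd14 below 0 with an asterisk in every row, while Ly96, Irak1, Irak2 and Irak4 have one in part of the rows and Myd88 and Ticam1 in none.

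The promoters of the IRAK genes that changed are shown next, as the 250 bases before the start site from RefSeq on GRCm38.p6, minus strand. Irak3, which rose, is read at chr10:120202131-120202380, and Irak1, which fell, at chrX:74023922-74024171, in each case at the more upstream of 2 windows. Capitals mark a match to the NF-kB consensus.
Irak3 promoter: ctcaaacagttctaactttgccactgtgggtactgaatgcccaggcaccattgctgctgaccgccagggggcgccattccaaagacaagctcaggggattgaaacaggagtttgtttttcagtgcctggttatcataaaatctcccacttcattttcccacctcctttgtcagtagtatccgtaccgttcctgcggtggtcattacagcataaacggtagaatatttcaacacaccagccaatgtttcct
Irak1 promoter: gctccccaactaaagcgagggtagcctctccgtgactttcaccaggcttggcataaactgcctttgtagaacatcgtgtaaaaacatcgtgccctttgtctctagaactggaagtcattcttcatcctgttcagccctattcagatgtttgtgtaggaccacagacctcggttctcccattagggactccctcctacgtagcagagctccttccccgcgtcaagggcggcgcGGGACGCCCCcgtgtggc
The NF-kB consensus matched in Irak1 alone of the 7 genes that had a promoter window, and in both of its windows. In the window shown the match begins at position -18 from the start site. Of all 32851 promoter windows of 300 bases 8.46% hold a match. The background shares here are per window, while the 7 genes had 10 windows and are counted by gene. The PU.1 core matched in Ticam1 and, after the start site, in Irak3, in 1 window of each, against 28.3% of all windows. The AP-1 site matched in 0 of the 7 genes, against 7.81% of all windows. A match is a string of letters and not a site of binding, and the 7 genes were Myd88, Tirap, Ticam1, Irak1, Irak2, Irak3 and Irak4. Cd14, Ly96 and Ticam2 had no entry.

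The GGACT copy nearest to the stop codon is shown for the same 2 kinase genes, with the motif in capitals. In Irak3 it is coding, at position -132 from the stop codon, at chr10:120142836-120142860, and in Irak1 it is coding, at position -813, at chrX:74018221-74018245 (GRCm38, minus strand).
Irak3 site: cgccatcccaGGACTtaagtcctac
Irak1 site: agaagcacctGGACTccagacctgg
Of the 10 transcripts 9 held at least 1 GGACT, against 91.5% of 10827 tested genes with a coding transcript, and Ly96 held 0. The density ran from 0 to 2.44 per kilobase with a median of 1.35, against a median of 1.05 over all those genes. Cd14, which fell, had the highest density (2.44), followed by Myd88 (2.04), which was not called, and Irak4 had 0.353. A copy within 200 bases of the stop codon was found in 6 of the 10 (Cd14, Myd88, Tirap, Ticam1, Ticam2 and Irak3), against 40.0% of all. Genes that rose, that fell and that were not called are among these 6.

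The other genes of the pathway were taken from a list by role. Of 46 genes 39 were tested, and 9 rose and 6 fell, which is 23.1% and 15.4% of those tested, beside 21.4% and 22.3% of all tested genes. Their median log2 fold change was 0.03, against 0.01 over all. 5 more had counts below the filter, and Lbp and Peli2 were not analysed here.

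At the receptor, Tlr4 had a log2 fold change of -0.15 (SE 0.12; edgeR quasi-likelihood, adjusted p = 0.309), with 31.7 and 31.6 CPM in shMettl3 cells, against 30.8 and 39.6 CPM in control cells. The control libraries differed, and the value was -0.34 and called without control replicate 1 (adjusted p = 0.00425) and 0.03 and not called without control replicate 2. Ly86, the partner of the TLR4-related protein CD180, had 33.0 and 24.4 CPM in shMettl3 cells, against 48.0 and 39.4 CPM in control cells, and fell by 0.61 on the log2 scale (SE 0.17, adjusted p = 0.0338). That call was lost without control replicate 1 (adjusted p = 0.141) and with no filter on low counts (adjusted p = 0.0586). Hsp90b1, a chaperone that folds Toll-like receptors, rose (0.49, SE 0.06), and Scarb1, a scavenger receptor that binds lipoproteins and LPS, fell by 0.44.

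Downstream of the IRAK kinases, the module of TRAF6, the TAK1 kinase and the IKK complex had 12 tested genes. They were listed with earlier results of these data known, so their count is not an independent test. The quasi-likelihood test of edgeR called 0 of the 12, where it called 43.7% of all tested genes. At an unadjusted p below 0.05 there were 3 (Ikbkg, Map3k7 and Pik3ap1). DESeq2 and limma-voom also called 0, library size alone and the authors' FPKM called 2, and the authors' TPM called 3. With no filter on low counts Ikbkg was called, without control replicate 1 Tab1, and without control replicate 2 Ikbkg and Tab2. Traf6, the ubiquitin ligase that IRAK1 engages, had 50.6 and 51.1 CPM in shMettl3 cells, against 51.1 and 46.9 CPM in control cells, a log2 fold change of 0.05 (SE 0.08) with a 95% interval of -0.12 to 0.22. All 12 log2 fold changes lay between -0.21 and 0.17.

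The next module joined TRIF partners, TBK1 and interferon regulatory factors, so not all of its genes are engaged by TRIF. Of its 10 tested genes 3 rose and 2 fell, beside 21.4% and 22.3% of all tested genes. Irf5, a transcription factor that MyD88 activates, had 173 and 166 CPM in shMettl3 cells, against 251 and 247 CPM in control cells, and fell by 0.55 on the log2 scale (SE 0.07; edgeR quasi-likelihood, adjusted p = 9.34e-05). The ubiquitin ligase gene Traf3 fell by 0.36, and Ikbke, a kinase of interferon regulatory factors (0.33), Ripk1, a kinase that TRIF binds (0.22), and Tmed7 (0.36) rose. Tbk1, the kinase that phosphorylates IRF3, was at 0.06 (SE 0.07) and Irf3 at -0.04 (SE 0.08), and neither was called. The sign turned for Irf3 with library size alone, FPKM and TPM, and for Tbk1 and Traf6 without control replicate 2. Irf7, a transcription factor of the interferon response, had 689 and 604 CPM in shMettl3 cells, against 782 and 478 CPM in control cells, and was not called at 0.04 on the log2 scale (SE 0.32). The control libraries lay on either side of the shMettl3 libraries, and Irf7 was called at 0.42 without control replicate 1 (edgeR quasi-likelihood, adjusted p = 7.87e-04) and at -0.28 without control replicate 2 (adjusted p = 0.0137). Tank, an adaptor that binds TBK1, was not called in the main test (0.13). It was called without control replicate 1 (0.19), with library size alone (0.23), and with the authors' FPKM (0.22) and TPM (0.28 with either pseudocount). The call on Ripk1 was lost in DESeq2 (adjusted p = 0.133), limma-voom, edgeR without robust fitting and 3 of the 4 fits that left out 1 library, and that on Traf3 with the authors' FPKM and TPM.

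Peli1, a ubiquitin ligase that modifies IRAK1, had 169 and 166 CPM in shMettl3 cells, against 108 and 93.2 CPM in control cells, and rose (log2 fold change 0.74, SE 0.08). Among 7 tested inhibitors of the receptor complex 3 rose and 2 fell, beside the same 21.4% and 22.3% of all tested genes. Sigirr, a receptor-like inhibitor of interleukin-1 and Toll-like receptor signalling, rose on few counts, with 45 and 49 in shMettl3 cells, against 5 and 6 in control cells (log2 fold change 3.02, SE 0.35). The deubiquitinase genes Cyld (0.51, SE 0.09) and Tnfaip3 (0.44, SE 0.07) rose. Il1rl1, the receptor for interleukin-33, which itself signals through MyD88 and can limit Toll-like receptor signalling, had 18.3 and 22.4 CPM in shMettl3 cells, against 29.9 and 35.6 CPM in control cells, and fell by 0.68 (SE 0.12). Tollip, a negative regulator of IRAK1, fell by 0.21, a call that 8 of 15 alternatives lost. Of the other receptors that use these adaptors, Il18rap, a chain of the interleukin-18 receptor, rose, with 9.34 and 8.62 CPM in shMettl3 cells, against 3.49 and 2.95 CPM in control cells (1.48, SE 0.17), while its partner Il18r1 had at most 1 count in a library and was below the filter.

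**Figure D5:**
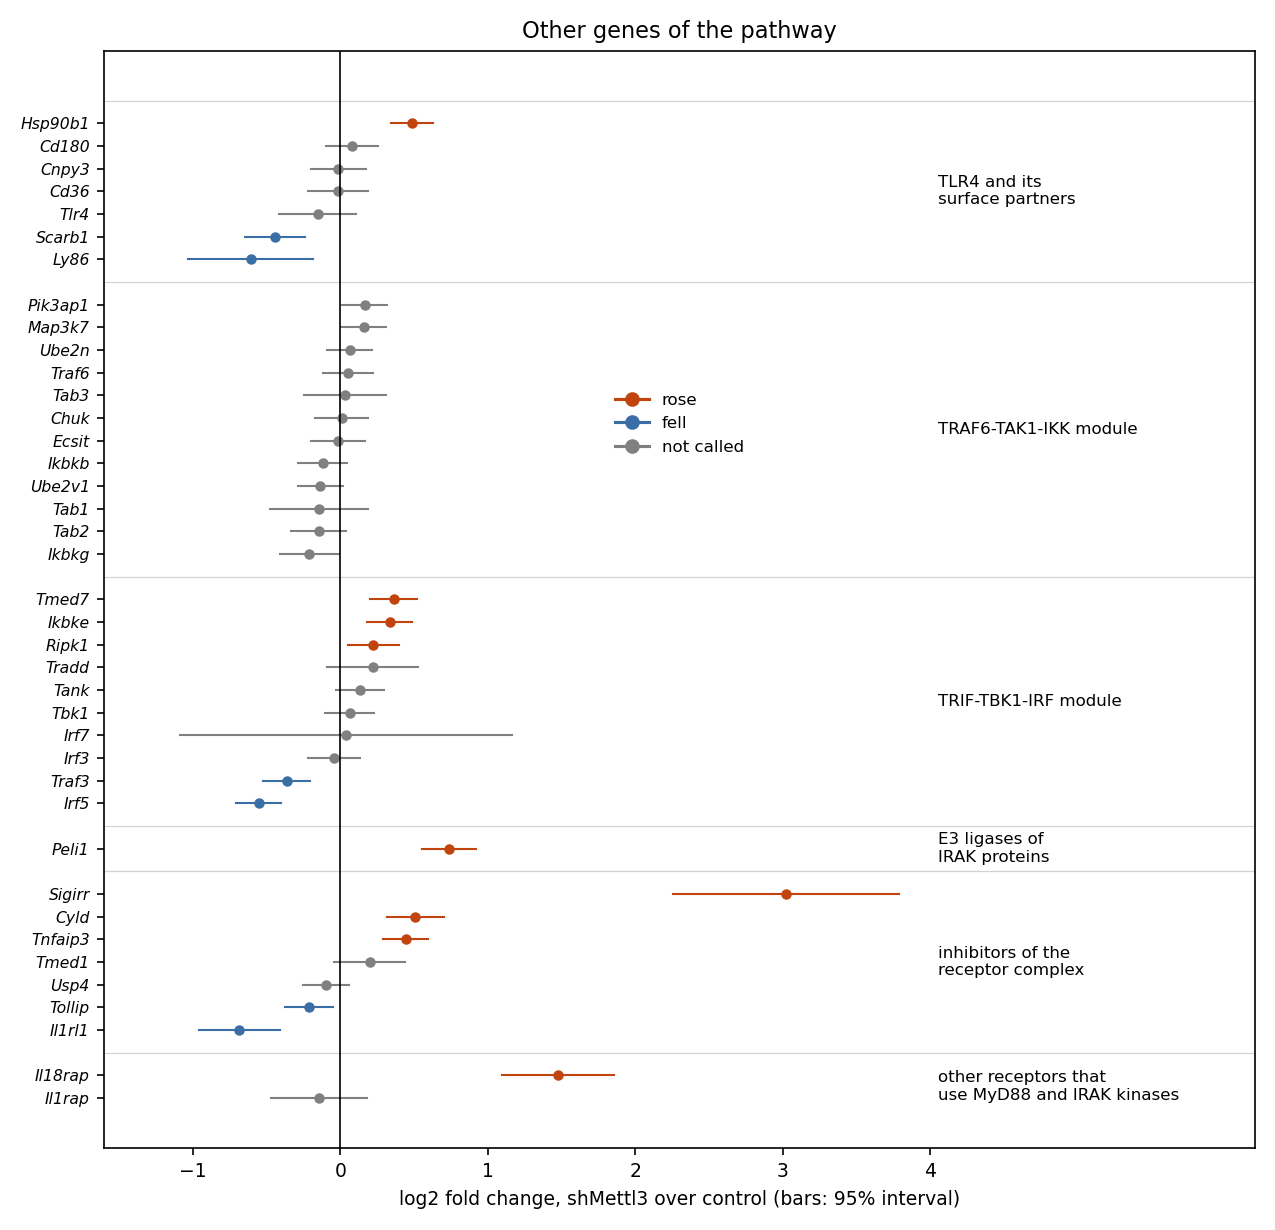
Log2 fold change, shMettl3 over control, of the 39 other tested genes of the pathway, grouped by role, with points for the estimate and bars for the 95% interval of edgeR's quasi-likelihood fit. All 12 genes of the TRAF6-TAK1-IKK module are not called, Sigirr (3.02) and Il18rap (1.48) lie farthest to the right, and Il1rl1 (-0.68) farthest to the left.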

How the data were processed

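The authors deposited 1 table of 14435 genes with, per the file headers, an estimated count, an FPKM value and a TPM value for each of 4 libraries. Estimated counts were not whole for 1808 genes (12.5%), and were deposited unnormalized. The authors' FPKM values are scaled to gene length and library size, and their TPM values to gene length and then to 1 total in every library. The submitters' processing notes name HISAT2 2.0.4, Bowtie2 2.2.5, RSEM 1.2.12 and mm9, with no role or order. The sources used here name neither the gene annotation nor the strand setting. Per the labels' protocols, poly(A)-primed cDNA was amplified by PCR and read as single ends of 50 bases on a BGISEQ-500. There are no molecular identifiers, so errors cover counting and the spread between libraries after PCR.

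Groups came from the sample titles. Counts were rounded and tested with edgeR 4.0.16 (R 4.3.3; filterByExpr with minimum count 10 and minimum total 15, TMM, robust quasi-likelihood fit), leaving 11035 genes, with Benjamini-Hochberg adjustment over all of them at 0.05. SE was derived from the fold change and the F statistic, and 95% intervals use the fit's total degrees of freedom. Means per group have n = 2. The common biological coefficient of variation was 0.0678. A test against a 1.5-fold change used glmTreat. DESeq2 1.42.0, limma 3.58.1, other scalings, filters, units, the replicate number as a block and fits without each library were alternatives. Chi-square over degrees of freedom was 4.15 between the shMettl3 libraries and 11.5 between the control libraries, above sampling noise in both pairs.

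Sequences came from RefSeq tables (GRCm38.p6) and GENCODE M21, both of a later build than mm9. The gene lists and members were chosen with earlier results of these data known. The text names the 10 genes, Mettl3, Mettl4, Tlr4, Traf6, Tbk1, Irf3 and each called pathway gene with an absolute log2 fold change of at least 0.5, and the other pathway genes and neighbouring genes after their values were seen.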

Additional observations from a re-analysis of the deposited data

How the results depend on the processing

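Tirap, Ticam2, Irak3 and Cd14 kept their direction and their call in all 15 alternatives, with log2 fold changes of 0.70 to 0.91 for Tirap, 0.63 to 0.66 for Ticam2, 0.45 to 0.58 for Irak3 and -0.60 to -0.38 for Cd14 when 1 library was left out. Without 1 library the range was 0.25 to 0.35 for Ly96, -0.45 to -0.29 for Irak1, 0.15 to 0.18 for Irak2, 0.16 to 0.39 for Irak4, -0.17 to 0.02 for Myd88 and -0.10 to 0.00 for Ticam1. Ly96 lost its call in DESeq2 (0.30), and Irak1 with TPM and a pseudocount of 1 (-0.21) or 0.1 (-0.22). Irak2 was called with library size alone (0.26), FPKM (0.25) and TPM (0.31 with either pseudocount), and Irak4 with library size alone (0.38) and TPM (0.36 and 0.38). Myd88 was above 0 with library size alone (0.029), FPKM (0.021), TPM (0.076 and 0.077) and without control replicate 1 (0.024), and Ticam1 with library size alone (0.055), FPKM (0.046), TPM (0.10 with either pseudocount) and without control replicate 2 (0.00, at 0.00312), none of them called. These scalings move the median of all genes to 0.11, 0.08, 0.14 and 0.15 (main test 0.01), and the share of calls that rose to 64.1%, 63.5%, 70.0% and 70.1%, against 48.9%.

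The number of the 10 genes that fell was 1 with TPM (either pseudocount) and 1 to 2 without 1 library, where 3 to 4 rose, and 0 to 1 were beyond 1.5-fold. Over all tested genes 1505 and 1498 fell with TPM, and without 1 library 1503 to 2543 rose, 1592 to 2781 fell and 677 to 1096 were beyond 1.5-fold. The lowest counts of calls came without shMettl3 replicate 1. Of the other pathway genes 14 rose with TPM (either pseudocount), and 8 to 11 rose and 5 to 9 fell without 1 library. With the replicate number as a block the log2 fold change was 0.81 for Tirap, 0.65 for Ticam2, 0.53 for Irak3, 0.31 for Ly96, -0.48 for Cd14 and -0.37 for Irak1, and no call on the 10 genes changed. The libraries share only a number, with a correlation of 0.146 between deviations of same-numbered libraries across genes and 2 pairs, and the block gave 5116 calls over all genes, against 4826. Where 1 library was left out, the lone library of its group is assumed to vary like the other group.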
